A study of Macaca mulatta with 52 samples.

Results

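Rhesus monkey expanded blastocysts were compared by their level of 3 genes of the primitive endoderm, the transcription factor GATA4, the growth factor receptor PDGFRA and the type IV collagen chain COL4A1. Of 14 expanded blastocyst libraries made with the SPIA kit, the 13 with adequate depth were scored by the mean of log2(CPM + 1) of these genes, where CPM is counts per 1000000 counts (1 M) of the whole library. The 5 highest libraries form the high group and the 5 lowest the low group, and 3 lie in between. The groups were therefore chosen by these values and not by any treatment, and the 3 scored genes are left out of the results. The embryo table holds 49 mapped libraries over all stages and both kits.

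The series profiled single rhesus monkey (Macaca mulatta) embryos by RNA-seq. Oocytes matured in females given FSH and then hCG were fertilised in vitro, and the embryos of all groups here were grown in HECM-9, a chemically defined medium, to which bovine calf serum was added after the first days. Part of the cultures also received relaxin, a peptide hormone, and the labels do not say which embryos did. RNA was taken from whole expanded blastocysts freed of cumulus cells and amplified with SPIA, and for some of the same embryos a second library was made with the SoLo kit, which removes ribosomal RNA.

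In the blastocyst the inner cell mass parts into the epiblast, which gives rise to the fetus, and the primitive endoderm, which lines the cavity and forms yolk sac endoderm, while the outer trophectoderm forms placenta. FGF signalling through ERK moves cells towards the primitive endoderm. These cells express GATA6 first, then SOX17 and GATA4, depend on PDGF receptor signalling, and lay down a basement membrane of laminin, type IV collagen and nidogen. In a whole embryo, fewer cells of a type and less RNA per cell cannot be told apart.

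The code that opens the embryo number in each library's title (111215 in 111215_03) went with the score, and its meaning is not given in the labels. All 5 high libraries carried code 111215 (3 libraries) or 111715 (2), and all 5 low libraries carried 112415 (3) or 112515 (2), so group and title code cannot be told apart. The 3 middle libraries carried 111715 (2) and 112415 (1). Counts from a list of X and Y linked sex genes (summed above 20 CPM) were present in 2 of 5 high, 3 of 3 middle and 3 of 5 low libraries. The 2 SoLo libraries of code 111215 share a cut-off column header that does not tell their embryos apart, and titles name embryos 111215_01 and 111215_03. Both held these counts, while SPIA library 111215_03, a member of the high group, had almost none. If the titles hold for these columns, labels and counts disagree for that embryo. Whether a label or the mapping of the columns is wrong was not tested, and the count of calls without 111215_03 is given with the calls. These 2 SoLo libraries are given by value only, with no group.

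The score fell from 7.46 in blastocyst 111215_02 through 7.00 (111715_04), 6.82 (111215_03) and 6.63 (111215_01) to 6.61 in 111715_01, the lowest of the high group. Just outside it stood 112415_01 at 6.41, followed by 111715_03 at 6.35 and 111715_02 at 5.94. The low group ran from 5.88 in 112415_02, close to the middle libraries, to 4.07 in 112415_04, 3.88 in 112515_03, 3.82 in 112415_03 and 2.84 in 112515_04. The low group is thus 4 libraries well below all others and 1 beside the boundary.

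The 3 genes did not contribute alike to the choice. GATA4 was at 23.2 to 52.9 CPM in the high libraries, and in the low ones it was at 19.5 in 112415_02, at 2.04 and 0.862, and at 0 in 2 libraries. COL4A1 was at 79.7 to 232 CPM against 0.216 to 31.2. PDGFRA overlapped, at 289 to 441 CPM in the high and 163 to 347 in the low group. After TMM scaling over all SPIA libraries, which corrects for a few identifiers that take a large share of the counts, the median of PDGFRA was 299 CPM in the high and 359 in the low group. On that scale GATA4 also overlapped, at 20.1 to 36.5 CPM in the high and 0 to 22.5 in the low group. COL4A1 stayed apart there, at 66.9 to 134 CPM against 0.325 to 35.9.

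**Figure D1:**
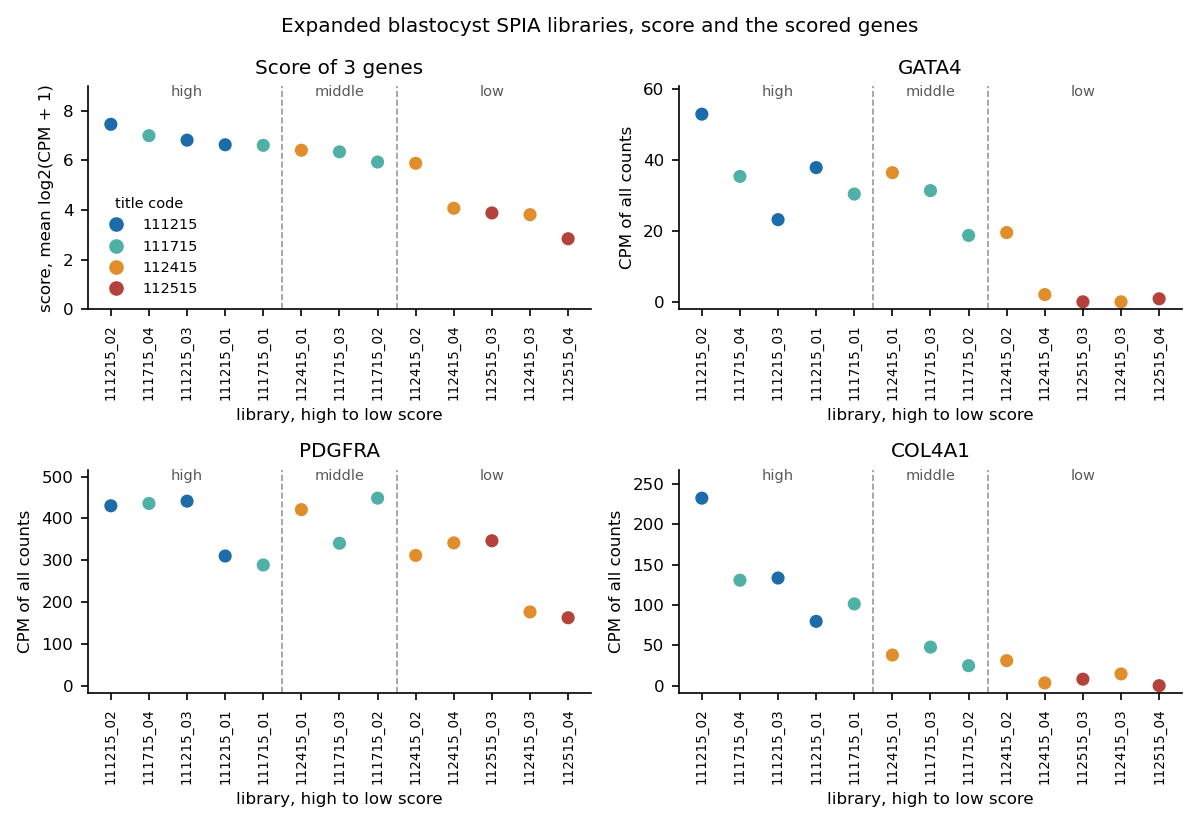
The score and the CPM of the 3 scored genes (y axes) in the 13 SPIA libraries ordered by score (x axis), coloured by title code. On this scale, CPM of the whole library, GATA4 and COL4A1 part the high from the low libraries and PDGFRA (163 to 441 CPM) does not. The high and low groups share no title code.

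Outside the scored genes, few differences passed the test. RSPO3, a secreted enhancer of WNT signalling, FN1, which encodes the matrix protein fibronectin, MAPRE2, a protein of growing microtubule ends, and ATP12A, a proton and potassium pump, were higher in the high group. PCLO, a scaffold protein, SASH1, an adaptor, CUL4B, a part of ubiquitin ligases, and TRIP11, a Golgi protein, were lower. Of 11193 genes tested, 11 were higher (0.0983%) and 23 lower (0.205%) at an edgeR adjusted p under 0.05. At an unadjusted p under that value there were 1398 of the 11193, 583 higher and 815 lower. These are the counts over all genes to set beside those of the lists below. The groups did not overlap in 241 higher genes (2.15%) and 99 lower genes (0.884%). All 11 higher calls have a gene name, as do 13 of the 23 lower ones. Because the groups were selected on 3 genes of the same libraries, the adjusted p-values rank genes by how closely they moved with the score and do not test a treatment. Leaving out 1 library gave 8 calls without 111715_01, 11 without 111215_02, 11 without 112515_04, 12 without 111715_04, 19 without 111215_03, 21 without 111215_01 and 55 without 112415_03. RSPO3, FN1, MAPRE2, ATP12A and CTTNBP2, 5 of the 20 named genes called without overlap between groups, passed in each of the 10 fits that left out 1 high or low library. NAV2 passed in 8 of these fits, DMXL2 in 7, SASH1 in 6 and CUL4B in 5. PCLO, IMPACT, MFN1 and SYTL5 passed in 4, TRIP11 and ZNF92 in 3, and GLB1, WIPF1, CMTM7 and RAVER2 in 2. FBXL21 passed in 0 of the 7 that tested it.

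Levels below are TMM-scaled CPM of the 13 libraries unless another scale is named. RSPO3 was at 7.16, 6.47, 19.5, 13.1 and 11.2 CPM in high libraries 111215_02, 111715_04, 111215_03, 111215_01 and 111715_01, an order kept for the high group below. It had no count in any of the 5 low libraries, and so passed the count filter through the other libraries. Against the 3 counts over the group that a count of 0 allows, it was at least 98.5-fold higher (edgeR adjusted p = 0.00612). FN1 was at 184, 35.0, 121, 76.9 and 58.0 CPM in the high group. In low libraries 112415_02, 112415_04, 112515_03, 112415_03 and 112515_04, again the order used below, it was at 9.15, 2.86, 0.649, 1.40 and 0.463 CPM. The groups were far apart. The log2 fold change was 5.03 ± 0.77 (SE derived from the test statistic, 5 libraries a group, edgeR adjusted p = 0.00612). Among low libraries the highest FN1 level belonged to 112415_02, the one whose score lay next to the middle group.

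MAPRE2 was at 55.3, 38.1, 24.6, 27.7 and 28.8 CPM in the high group and 4.02, 2.06, 1.08, 3.72 and 2.47 in the low group, an increase of 3.70 ± 0.54 on the log2 scale (edgeR adjusted p = 0.00612). Every high library held over 20 CPM and every low one under 5. WIPF1, which binds the actin regulator WASP, was at 31.3 to 80.1 CPM against 0.433 to 11.9 (3.15 ± 0.66, edgeR adjusted p = 0.0464). CTTNBP2, a partner of the actin-binding protein cortactin, was at 7.02 to 15.2 CPM against 0 to 0.366 (5.81 ± 1.01, edgeR adjusted p = 0.0173). NAV2, a neuron navigator protein that binds microtubules, was at 19.6 to 193 CPM against 0.433 to 9.51 (4.29 ± 0.75, edgeR adjusted p = 0.0173). SYTL5, a synaptotagmin-like protein that takes part in vesicle transport, was at 3.03 to 13.3 CPM and had no count in the low group, at least 57.3-fold higher (edgeR adjusted p = 0.0348). It passed the count filter through libraries outside the low group, and was called in 4 of the 10 fits that left out 1 library.

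ATP12A was at 284, 121, 220, 116 and 193 CPM in the high group and at 12.3, 41.3, 16.7, 35.7 and 45.7 in the low group. Its log2 fold change was 2.62 ± 0.41 (edgeR adjusted p = 0.00631). GLB1, the lysosomal beta-galactosidase, was at 62.0 to 141 CPM against 11.6 to 51.8 (2.12 ± 0.42, edgeR adjusted p = 0.0348). RAVER2, an RNA-binding protein, was at 4.28 to 19.6 CPM against 0 to 0.549 (5.34 ± 1.13, edgeR adjusted p = 0.0464). Like CTTNBP2, it passed the count filter through libraries outside the low group, and RAVER2 was called in 2 of the 10 fits that left out 1 library. FBXL21, an F-box protein that acts in the circadian clock, spread widely inside the high group, from 0.639 CPM in 111715_01 to 32.0 in 111215_03, and had 1 count in all 5 low libraries together. It passed the count filter through the high group, and although edgeR called it (adjusted p = 0.0464), it was tested in only 7 of the 10 fits that left out 1 library and called in 0 of those 7 (adjusted p up to 0.0888).

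**Figure D2:**
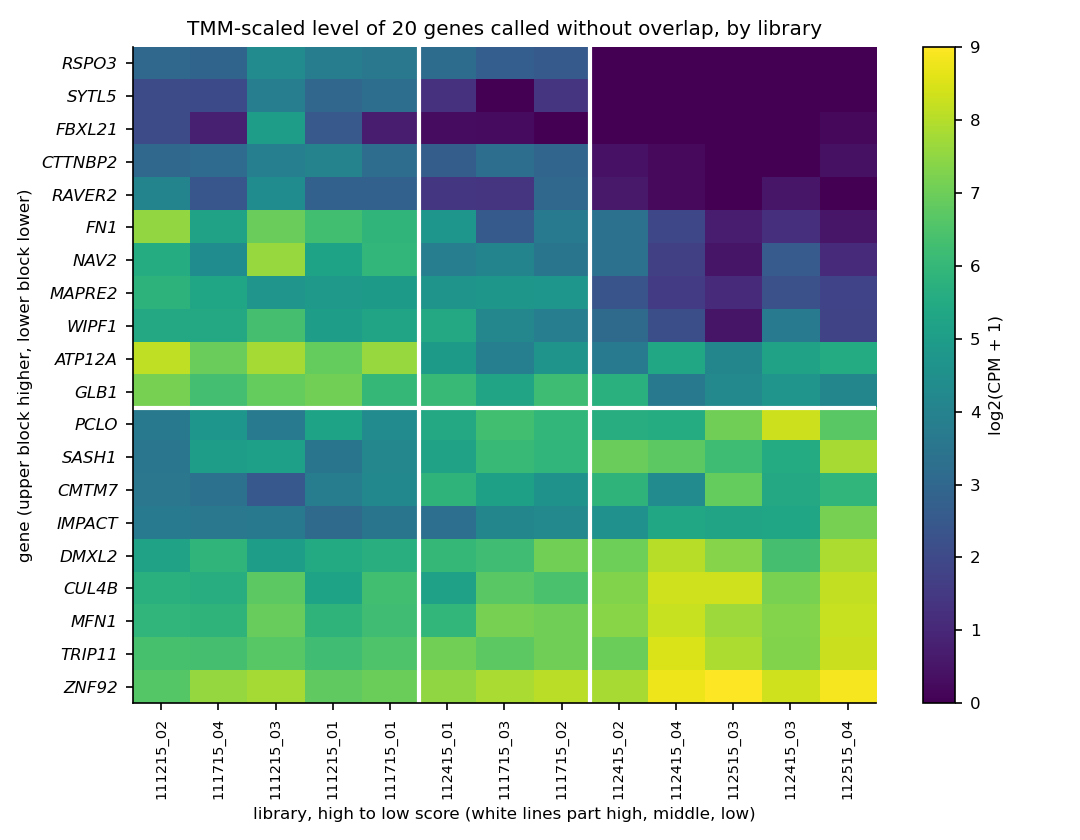
Level of the 20 named genes called without overlap between groups, as log2(CPM + 1) by colour, in 13 libraries ordered from high to low score (columns); white lines part the high, middle and low groups and the 11 higher from the 9 lower genes. RSPO3 and SYTL5 are at 0 in all 5 low libraries, and in the middle libraries RSPO3 lies at 4.84 to 8.10 CPM.

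The 9 lower genes were moderately expressed in both groups. PCLO, a large scaffold protein known from synapses, was at 11.6, 25.8, 12.1, 36.7 and 19.5 CPM in the high group and 47.4, 46.5, 130, 315 and 102 in the low group (-2.60 ± 0.51 on the log2 scale, edgeR adjusted p = 0.0304). Its low-group libraries were all above its high-group ones, with 112415_03 the highest. SASH1, a signalling adaptor, averaged 20.3 ± 10.8 CPM (SD, n = 5) against 115 ± 69.1 (-2.50 ± 0.46, edgeR adjusted p = 0.0230). CMTM7, a membrane protein of the MARVEL family, was at 11.0 ± 4.71 CPM against 59.2 ± 36.3 (-2.42 ± 0.51, edgeR adjusted p = 0.0464). IMPACT, a regulator of the amino acid sensor kinase GCN2, was at 10.5 ± 1.66 CPM against 56.0 ± 48.4, the low mean resting largely on 142 CPM in 112515_04 (-2.41 ± 0.51, edgeR adjusted p = 0.0464).

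DMXL2, which regulates the vacuolar proton pump, averaged 43.8 CPM against 174 (-1.99 ± 0.35, edgeR adjusted p = 0.0185). MFN1, the mitochondrial fusion GTPase mitofusin, was at 56.1 to 119 CPM against 159 to 303 (-1.63 ± 0.32, edgeR adjusted p = 0.0348). TRIP11, a Golgi tethering protein, was at 74.9 to 100 CPM against 124 to 360 (-1.47 ± 0.30, edgeR adjusted p = 0.0362). CUL4B, the scaffold of a ubiquitin ligase, was at 35.9 to 104 CPM against 145 to 326 (-1.97 ± 0.37, edgeR adjusted p = 0.0272). ZNF92, a zinc finger protein, was at 98.2 to 220 CPM against 224 to 524 (-1.42 ± 0.29, edgeR adjusted p = 0.0452). TUBB4A, THEM4, APOBEC3H and SCNN1A also passed the threshold but overlapped between groups.

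Transcription factors of the primitive endoderm outside the score gave no call. Of 11 tested members, 0 passed with edgeR (5 at an unadjusted p under 0.05), and 6 had a positive fold change, as did 45.5% of all genes tested. Of the 5, 2 were higher (FOXA2 and MIXL1) and 3 lower (GATA6, OTX2 and HHEX). GATA6, the earliest of them, was at 126, 214, 144, 261 and 121 CPM in the high group and 347, 342, 276, 480 and 214 in the low group, a log2 fold change of -0.94 ± 0.31 (edgeR adjusted p = 0.227). The groups overlapped, and the mean was the larger one where GATA4 was low. FOXA2, a pioneer factor of endoderm, was at 1.68 to 7.90 CPM in the high group, at 0.793 in 1 low library and at 0 in the other four (4.48 ± 1.34, edgeR adjusted p = 0.181). HNF4A, a nuclear receptor of visceral endoderm and liver, overlapped fully (-0.34, edgeR adjusted p = 0.796). SOX17 has no named identifier in the table.

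Of 14 tested surface and secreted proteins of the primitive endoderm, RSPO3 and FN1 passed, where 0.0983% of all genes tested were called higher. The lists were written with earlier results of these data known, so shares over all genes are no independent background. RSPO3 passed the count filter only through libraries outside the low group. A positive fold change was seen in 9, and in 45.5% of all genes tested. At an unadjusted p under 0.05, 5 were higher and 1 lower. The lower one was DPP4, at 815 to 1996 CPM against 1385 to 3539 (-0.71 ± 0.29, edgeR adjusted p = 0.310), and HPGD, PCSK5, LBH and CTSE also had negative fold changes. NID2, the basement membrane linker nidogen, was at 483 to 827 CPM against 26.6 to 426 without overlap, and was not called (1.57 ± 0.44, edgeR adjusted p = 0.133). BMP6, a secreted growth factor, was at 0.639 to 7.77 CPM against 0 to 1.86 (3.26, edgeR adjusted p = 0.305), and FRZB, a secreted WNT antagonist, did not separate (0.34, edgeR adjusted p = 0.941). CER1 had no count in either group.

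In the basement membrane list FN1 was the 1 member of 21 tested that passed, where 0.0983% of all genes tested were called higher. A positive fold change was seen in 15 (45.5% of all genes tested had one), with a list median of 0.73 against -0.09 over all genes tested. COL4A2, the partner chain of the scored COL4A1, was at 9.89 to 33.6 CPM against 0.952 to 12.6 (1.75 ± 0.64, edgeR adjusted p = 0.274). The laminin chains LAMB1 (440 to 615 CPM against 356 to 725) and LAMC1 (615 to 904 against 362 to 837) overlapped, with log2 fold changes of 0.01 and 0.32 (edgeR adjusted p = 0.998 and 0.660). NID1, the other nidogen, was at 73.4 to 231 CPM against 0.433 to 75.2 (2.72, edgeR adjusted p = 0.216). The laminin chains thus overlapped between groups that COL4A1, a scored gene, separates.

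Genes of visceral endoderm and yolk sac transport gave 0 calls of 9 tested with edgeR (3 at an unadjusted p under 0.05). Their median was 0.98, with 7 positive fold changes, where 45.5% of all genes tested had one. MTTP, which loads lipid onto apolipoproteins, was at 6.47 to 22.2 CPM against 0 to 3.29 (3.70 ± 1.17, edgeR adjusted p = 0.210). It was the 1 member whose groups did not overlap, where 2.15% of all genes tested were higher without overlap. APOA1, the main protein of high density lipoprotein, was at 27.1 to 116 CPM against 0.154 to 32.6 (2.14, edgeR adjusted p = 0.288). LRP2, the endocytic receptor megalin, was abundant in both groups, at 2541 to 4579 CPM against 960.2 to 2980 (0.60, edgeR adjusted p = 0.386). Its partner genes CUBN and AMN, and APOB, were below the count filter. In the lysosome list GLB1 was the 1 call of 29 tested, where 0.0983% of all genes tested were called higher. A positive fold change was seen in 25 members (45.5% of all genes tested had one), with a median of 0.52. The protease CTSL was at 198 to 378 CPM against 64.9 to 165 (1.06 ± 0.29, edgeR adjusted p = 0.131).

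The signalling genes tested were receptors, ligands and response genes of the lineage choice. The FGF, PDGF and ERK list had 0 calls of 22 tested with edgeR (4 at an unadjusted p under 0.05) and a median of 0.21. FGFR2, an FGF receptor, was at 17.6 to 61.0 CPM in the high and 54.5 to 174 in the low group (-1.49 ± 0.39, edgeR adjusted p = 0.118). FGFR1 (0.23, edgeR adjusted p = 0.941) and PDGFA, the ligand of PDGFRA (-0.89, edgeR adjusted p = 0.427), overlapped. FOS, an early response gene of ERK, was the member whose groups did not overlap, at 1.25 to 3.52 CPM against 4.76 to 16.8 (-1.78, edgeR adjusted p = 0.342). Of all genes tested 0.884% were lower without overlap. RSPO3 was the 1 call of 15 in the list of WNT, BMP and NODAL genes, where 0.0983% of all genes tested were called higher. NODAL itself was below the count filter. FGF4 has no named identifier.

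POU5F1 and NANOG, core factors of the epiblast, overlapped between the groups. Of 16 epiblast and pluripotency genes tested, 0 passed with edgeR (4 at an unadjusted p under 0.05, all lower), and the median was -0.05. POU5F1 was at 4.21 to 93.6 CPM against 5.87 to 82.2 (-0.01, edgeR adjusted p = 0.998), and NANOG at 11.9 to 39.9 against 4.11 to 61.3 (0.14, edgeR adjusted p = 0.966). KLF4, a pluripotency factor that trophectoderm also expresses, came nearest to the threshold, at 32.8 to 92.1 CPM against 135 to 226 (-1.55 ± 0.34, edgeR adjusted p = 0.0561).

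Trophectoderm genes had positive fold changes in 15 of 20 transcription factors and 20 of 27 surface and effector genes, with medians of 0.87 and 0.40 and 0 calls with edgeR (5 higher and 1 lower, and 7 higher and 1 lower, at an unadjusted p under 0.05). Of all genes tested 45.5% had a positive fold change. KRT19, a keratin of trophectoderm and other epithelia, was at 109, 84.7, 43.2, 116 and 86.5 CPM in the high group and 14.6, 6.98, 6.27, 20.8 and 0.309 in the low group (3.16 ± 0.70, edgeR adjusted p = 0.0561). Those libraries did not overlap. ABCG2, a drug and sterol exporter of trophoblast, was at 14.9 to 76.0 CPM against 0.216 to 6.04 (3.04 ± 0.75, edgeR adjusted p = 0.0897). The lower ones were the water channel AQP3, at 32.7 ± 26.4 CPM against 111 ± 64.4 (SD, n = 5 each; -1.76 ± 0.55, edgeR adjusted p = 0.200), and the transcription factor HAND1, at 2.66 to 8.45 against 0.216 to 88.0 (-2.19, edgeR adjusted p = 0.393). GATA2 (264 to 320 CPM against 42.6 to 273), GATA3 (14.2 to 50.7 against 11.0 to 45.4) and KRT18 (137 to 442 against 49.4 to 260.2) overlapped. The medians of the endoderm lists beside these were 0.54 for transcription factors, 0.48 for surface and secreted proteins and 0.98 for transport genes, and whether the 2 lineages moved together was not tested.

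**Figure D3:**
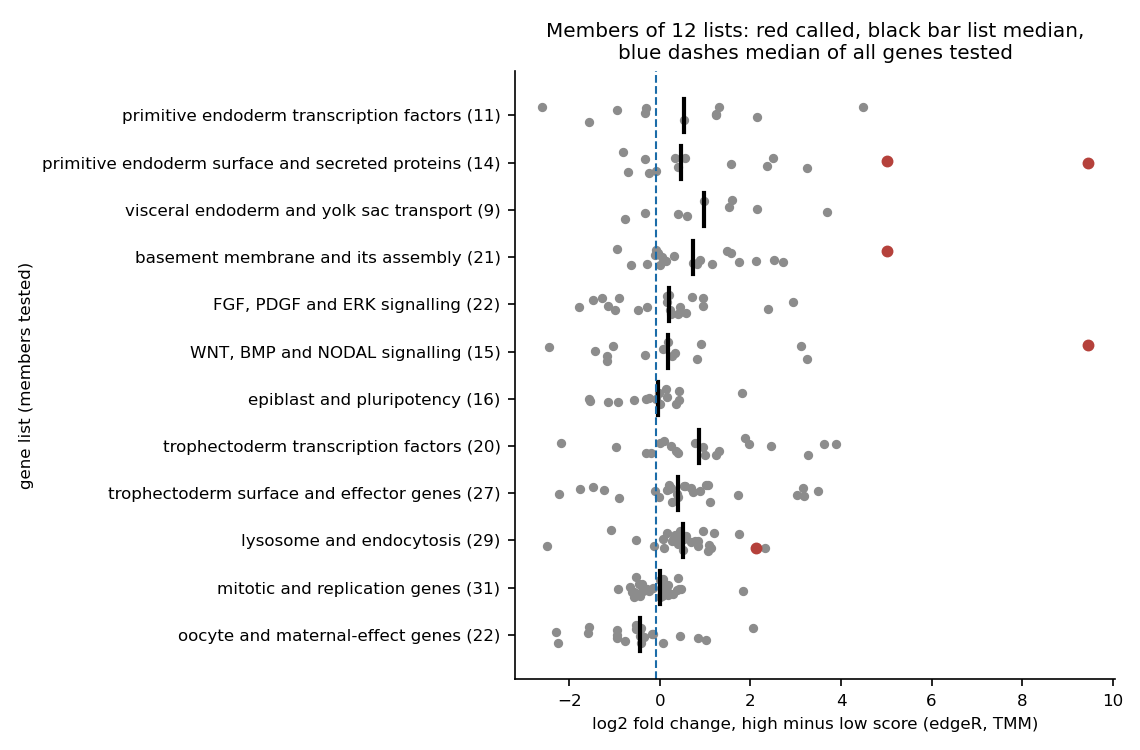
Log2 fold change, high minus low group (x axis), of each tested member of 12 gene lists (rows, with the number tested); red points passed the test, black bars are list medians and the blue dashed line is the median of all genes (-0.09). The 2 red points of the surface and secreted list are FN1 at 5.03 and RSPO3, whose position depends on the model since its low libraries are at 0; both recur in other lists.

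Housekeeping functions gave no call. Of 31 tested mitotic and replication genes, 0 passed with edgeR (1 at an unadjusted p under 0.05), 15 had a positive fold change and the median was -0.004. Ribosomal protein genes (40 tested, median -0.11) and glycolysis genes (18 tested, median -0.06) also had 0 calls with edgeR (3 and 1 at an unadjusted p under 0.05). Oocyte and maternal-effect genes had a median of -0.44, with 17 of 22 negative and 0 calls with edgeR (2 at an unadjusted p under 0.05). Markers of cells outside the embryo overlapped between the groups. Summed CPM of all counts was 278 to 796 in the high and 318 to 464 in the low group for cumulus and granulosa genes, 29.2 to 74.2 against 6.80 to 122 for sperm genes, and 10.6 to 28.0 against 4.33 to 33.5 for blood and immune genes.

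The share of counts in 13 abundant identifiers without a gene name moved with the score. It was 24.8%, 36.0%, 42.9%, 51.2% and 34.8% in the high libraries and 59.3%, 57.5%, 70.3%, 59.5% and 64.4% in the low ones, without overlap. The means were 38.0% ± 9.85 and 62.2% ± 5.20 (SD, n = 5 each). The share enters the score through its denominator, the total count, so a low share raises the score and the difference is given without a test. In the fit 12 of these identifiers were tested, all 12 had negative fold changes (median -1.75), and 7 of the 10 lower calls without a name were among them. Total counts, which are the denominator, were 5.47 to 11.7 M against 5.94 to 9.46 M and are also given without a test. At a common depth of 1.88 M counts outside the abundant identifiers, 13080 ± 848 genes were detected against 11327 ± 1238 (SD, n = 5 each; two-sided exact permutation p = 0.0397, adjusted p = 0.0926 over 5 measures). The share and total counts were among the measures in that adjustment. Counts outside the abundant identifiers, a part of the total, were 4.63 ± 2.39 M against 2.96 ± 0.380 M and are given without a test. With the share as a covariate, an alternative added after seeing the data, 0 genes were called with edgeR (361 at an unadjusted p under 0.05) and 29 of the 34 calls kept their sign.

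The balance of directions depended on the scaling. TMM factors were 1.09 to 1.91 in the high and 0.489 to 0.922 in the low libraries. With total counts in place of TMM, the scale on which the score itself was built (added after seeing the data), 458 genes were called higher and 12 lower, and the median of all genes moved from -0.09 to 0.84. All 11 named higher genes also passed there. The 9 named lower genes kept their sign but none passed, PCLO at -1.77 (edgeR adjusted p = 0.0525) and ZNF92 at -0.46 (edgeR adjusted p = 0.291). When the score was recomputed from TMM-scaled CPM, 111715_01 moved from the high to the low group, 112415_01 from middle to high and 112415_02 from low to middle, and 0 genes were called with edgeR (953 at an unadjusted p under 0.05). All 34 calls kept their sign in that grouping, FN1 at 2.79 (edgeR adjusted p = 0.519) and RSPO3 at 2.24 (edgeR adjusted p = 0.699).

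**Figure D4:**
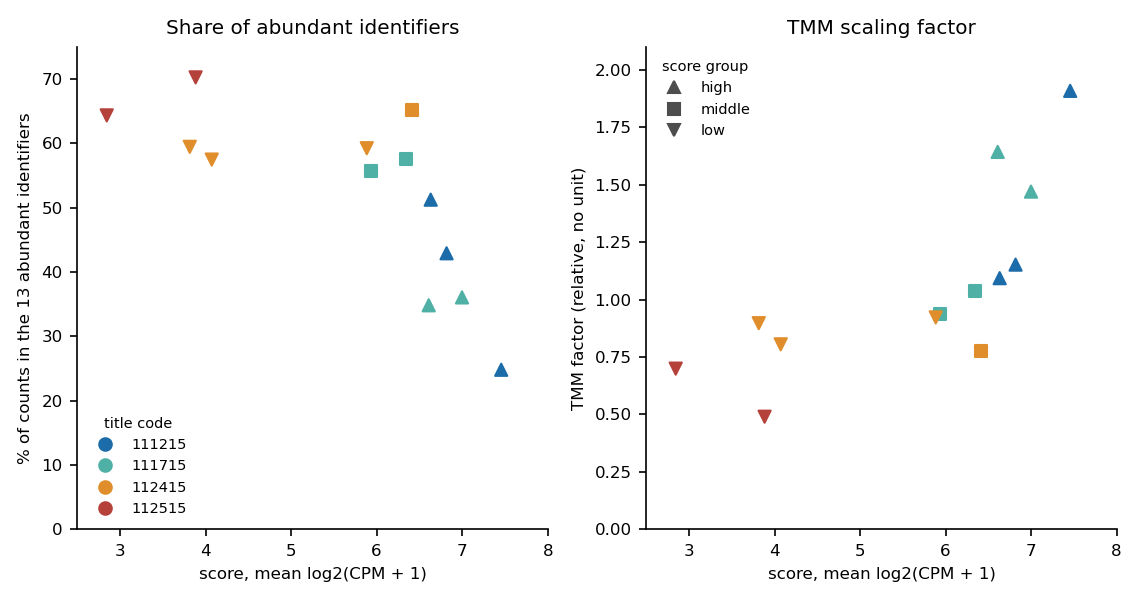
Share of all counts in the 13 abundant identifiers (left) and TMM scaling factor (right) against the score (x axis) of the 13 libraries, coloured by title code, with the score group as marker shape. The high libraries lie at 24.8% to 51.2% and the low ones at 57.5% to 70.3%.

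Each title code held high or low libraries but not both, so a comparison inside a code reaches only the middle libraries. In code 112415, middle library 112415_01 had RSPO3 at 8.10 CPM where its 3 low libraries had 0, MAPRE2 at 24.3 against 2.06 to 4.02, CTTNBP2 at 5.24 against 0 to 0.366 and WIPF1 at 42.2 against 3.49 to 11.9. FN1 was at 25.7 CPM there against 9.15, 2.86 and 1.40. For ATP12A it did not stand apart, at 28.8 CPM against 12.3, 41.3 and 35.7. In code 111715 the 2 high libraries had FN1 at 35.0 and 58.0 CPM against 4.80 and 12.4 in the 2 middle ones, and ATP12A at 121 and 193 against 13.8 and 24.0. RSPO3 was at 6.47 and 11.2 CPM against 5.40 and 4.84. MAPRE2, at 28.8 and 38.1 against 25.5 and 26.2, was nearly level there. CTTNBP2 overlapped in that code, at 7.83 and 8.21 CPM against 8.60 and 6.61, and WIPF1 was at 42.5 and 37.5 against 16.8 and 13.4. With title code as a fixed term, which rests on these middle libraries, 0 genes were called with edgeR (282 at an unadjusted p under 0.05), and all 34 calls kept their sign.

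SoLo libraries give a second measurement of 4 of the embryos that the score did not use, 2 high, 1 middle and 1 low, so values are given without a test. Low embryo 112415_03 was below both high embryos in 10 of the 11 higher genes, where 38.5% of all genes tested were, and above both in 6 of the 9 lower genes, where 40.0% were. These genes were chosen for this order in SPIA libraries that include those of the same embryos, so the shares over all genes are no equal background. The counts show how far the second kit repeated the order, with 1 low embryo. RSPO3 was at 15.6 CPM (scaled over the SoLo libraries) in 111715_01 and 17.4 in 111715_04 and had no count in 112415_03. FN1 was at 106 and 51.1 CPM against 3.39, and ATP12A at 525 and 390.4 against 26.5. FBXL21 was the exception among higher genes, at 8.50 and 2.51 CPM against 2.90. Of the lower genes PCLO was at 26.1 and 25.2 CPM against 195 and MFN1 at 122 and 119 against 317, while TRIP11 differed little, at 111 and 127 against 128.

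Middle embryo 111715_02 stood elsewhere in the second measurement. Its SoLo library had the highest FN1 (320.2 CPM), RSPO3 (22.3), ATP12A (714) and GLB1 (142) of the 4 embryos. Its SPIA library had FN1 at 12.4, RSPO3 at 4.84 and ATP12A at 24.0 CPM, below both high embryos. GLB1 was at 73.7 CPM in that SPIA library, between the high embryos 111715_01 (62.0) and 111715_04 (78.3). The score from SoLo counts was 7.12 in this embryo, 6.48 in 111715_04, 5.79 in 111715_01 and 4.36 in 112415_03. The low embryo kept its place and the middle one did not. The 2 SoLo libraries of code 111215 scored 6.71 and 5.06 and differed widely in FN1 (92.8 and 10.8 CPM) and RSPO3 (6.67 and 0).

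**Figure D5:**
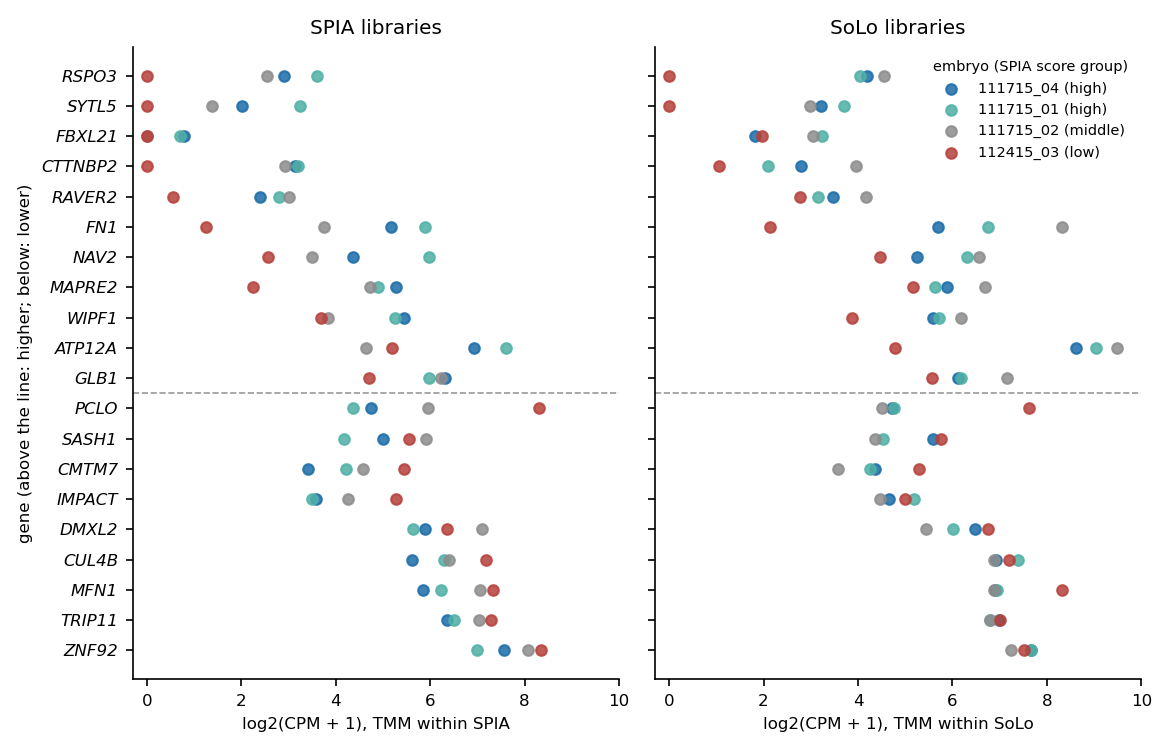
Level of the 20 named genes called without overlap (rows) as log2(CPM + 1) in the SPIA (left) and SoLo (right) libraries of the same 4 embryos, each kit scaled on its own. The low embryo (red) lies left of both high embryos (blue, green) in SoLo for 10 of the 11 higher genes, and the middle embryo (grey) moves from low FN1 in SPIA (12.4 CPM) to the highest in SoLo (320.2 CPM).

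Earlier stages and delayed blastocysts place these levels, on a scale common to all SPIA libraries. Of the scored genes, PDGFRA was not limited to blastocysts, with a median of 208 CPM in 8-cell embryos and 236 in morulas. GATA4 had medians of 0.33 and 0.19 CPM there, and COL4A1 of 2.77 and 0.20. RSPO3 had a median of 0 CPM in 9 8-cell and 11 morula libraries, with highest values of 0.27 and 0.14, and SYTL5 and FBXL21 also had a median of 0 in both. ATP12A was at a median of 0 and 0.39 CPM. FN1 was not limited to blastocysts, with a median of 135 CPM in 8-cell embryos and 0.85 in morulas, and MAPRE2 went from 80.0 to 15.1. Of the lower genes CUL4B had a median of 273 CPM in morulas against 305 in low and 57.1 in high blastocysts, MFN1 138 against 211 and 66.1, and ZNF92 727 against 461 and 136. PCLO was at a median of 325 CPM in morulas against 107 in low and 21.1 in high blastocysts, and SASH1 at 66.9 against 112 and 18.6. CMTM7 was at a median of 7.22 CPM in morulas against 60.7 in low and 11.9 in high blastocysts, IMPACT at 18.1 against 39.3 and 11.9, DMXL2 at 74.1 against 172 and 47.1, and TRIP11 at 155 against 250 and 90.1. The morula medians of these last 4 lay nearer to the high than to the low group, and no test was made across stages. The 2 delayed blastocysts, of code 112515 like 2 low libraries, scored 4.86 and 3.82, had RSPO3 at 0 and 0.27 CPM and FN1 at 4.22 and 0.54, and held ATP12A at 21.5 and 14.7. In the first of them MAPRE2 at 29.1, CTTNBP2 at 7.99 and WIPF1 at 26.4 CPM were above every low library, while the second had 2.56, 0.40 and 5.66. The shallow expanded blastocyst left out, 111715_05, with 0.601 M counts, scored 2.18. Scores, from CPM of the whole library, were 2.45 to 5.67 in 8-cell and 2.49 to 5.32 in morula SPIA libraries. Both ranges overlapped the scores of the low group.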

How the data were processed

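The deposited values are whole-number counts per Ensembl gene identifier and library (26309 identifiers, 15078 matched to a gene name). HISAT2 and DESeq2 are named in the submitters' processing notes, without versions. No read counter, genome build or strand setting is given in the sources used here, and overlapping, antisense and near-identical genes may share counts. Of 52 columns 47 were mapped to a sample by name, 2 SoLo columns to their group only, and 3 per-sample columns were not used. The members and gene lists were chosen with earlier results of these data known. The 13 libraries were fitted in 3 groups with edgeR 4.0.16 (R 4.3.3; filterByExpr, TMM, robust quasi-likelihood, Benjamini-Hochberg over 11193 genes), contrasting high with low; DESeq2 1.42.0 and limma 3.58.1 gave alternatives. The fit was tested on simulated counts. The SE of a log2 fold change was derived from the test, as its absolute value divided by the square root of the F statistic. It is approximate for genes near 0. Library measures were compared by exact permutation in scipy 1.17.1. Genes named are those past an adjusted p of 0.05 with a mean of at least 5 CPM in the higher group and no overlap (up to 15 higher, 10 lower), called list members, and set lineage genes; other genes named were chosen after their values were seen. Nothing says that libraries come from separate parents, so p-values measure the spread between these embryos. Counting error limits genes near 0. Alternatives covered scaling, filters, grouping, covariates, title code, kit and libraries left out.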

Additional observations from a re-analysis of the deposited data

Results flagged for a closer look

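Library 111215_02 stood apart within the high group in depth, with 11.7 M total counts and 8.78 M counts outside the abundant identifiers, each far from the other 4 high libraries. Library 111215_03 had the lowest share of ribosomal protein counts of the high group, 0.611% of counts outside the abundant identifiers, far from the other 4. FBXL21 was at 0.154 CPM, from 1 count, in low library 112515_04 and at 0 in the other 4 low libraries. Of 50 sets of 5 values examined with Dixon's test at the 95% level, 4 were marked, and chance marks about 1 in 20.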

How the results depend on the processing

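Of 34 genes called, edgeR gave 470 with total counts without TMM, 96 with no filter, 8 from the 10 high and low libraries alone, 87 with the score as a number, 6 with log2 total counts as a covariate, and 0 with the score from TMM-scaled CPM, with title code as a fixed term, with the share of abundant identifiers as a covariate, or with the score as a number with title code as a fixed term (953, 282, 361 and 998 at an unadjusted p under 0.05). Leaving out 1 library gave 8 to 55. Without title code 111215 there were 0 (500 at an unadjusted p under 0.05), without 111715 1, without 112415 287 and without 112515 9. DESeq2 called 394 (191 higher and 203 lower), and voom with a random effect of title code 266 (172 and 94; within-code correlation -0.0769), each with all 34 calls among them. No code held both high and low libraries, so the random effect cannot part code from group and its count does not speak to the effect of code. SPIA and SoLo libraries fitted together in voom gave 61 with embryo as a replicate block (within-embryo correlation 0.438) and 110 without it, and the shared embryo pairs the kits. With DESeq2 size factors, TMM without the abundant identifiers, a 1 CPM filter and 4 against 4 libraries the count was 35, 34, 34 and 38. With the score as a number and title code as a fixed term, ATP12A turned to -0.10 and CMTM7 to 0.27. The other 18 of the 20 named genes called without overlap kept their direction in each fit that tested them, while 281 values of the 20 genes in alternative fits fell short of the threshold. The cause of these changes was not tested. Leaving out 1 library, the difference in genes detected was 1301 to 2133 (exact permutation p from 0.0317 to 0.0794). The difference in counts outside the abundant identifiers was 0.628 to 2.16 M, in total counts -1.86 to -0.31 M and in the abundant share -27.5 to -20.9 percentage points. These are given without a test because they are tied to the denominator of the score. The fits with total counts, with the abundant share, with the score as a number and title code, and without each title code were chosen after seeing the data.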
